A study of Homo sapiens with 6 samples.

Results

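Sites at which nearly every read carried a T-to-C conversion at the same single position were examined in PAR-CLIP libraries of HEK293, an established line of human embryonic kidney origin. A site here is a run of overlapping reads on 1 strand of the genome. The deposited tables give each site its count of reads, its count of conversion locations (positions at which a conversion was seen) and its count of conversion events (conversions summed over the reads). The fully converted sites were chosen by those counts alone, as sites with 10 or more reads, exactly 1 conversion location and events of at least 0.9 times the reads. In all 6 libraries together this gave 80408 sites, out of 897631 sites with 10 or more reads and 10639684 sites of any depth. Their depth, number of locations and share of converted reads were therefore set by the choice and are given as a description. The question was whether such a site is found again in other libraries, as a genomic difference from the reference would be, or belongs to a single library, and where in the genome these sites lie.

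All libraries came from HEK293 cells grown with 4-thiouridine (4SU), irradiated with UV light of 365 nm, and their RNA was cut with RNase T1. G20, G35 and G45 were slices at about 20, 35 and 45 kDa of a gel of FLAG-GFP immunoprecipitates, made with the FLAG M2 antibody from cells stably expressing a doxycycline-inducible GFP, and each slice was 1 library. HuR replicates 1 and 2 were immunoprecipitates with the same antibody from cells stably expressing doxycycline-inducible HuR. Total was 1 library of RNA from lysates of such 4SU-treated and irradiated cells that had no immunoprecipitation and were depleted for rRNA after proteinase K. Nothing in the labels says whether the slices came from separate cultures, so differences between libraries may be technical. The libraries held between 6187300 (G35) and 38644636 reads (G20) over their sites, and the reads carried no molecular identifiers, so all intervals below (95% Wilson) cover counting error only.

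In PAR-CLIP, 4SU is taken up into new RNA in place of some uridines, and when it is crosslinked to protein the reverse transcriptase tends to read it as C. A crosslinked position can be read as T in some molecules and as C in others. A site where C is read nearly every time lies at the upper end of that range, and how common such sites were is given below. RNase T1 cuts single-stranded RNA after G, so a fragment it made ends in G and is preceded by G in the genome. HuR (ELAVL1) is an RNA-binding protein that binds U-rich and AU-rich stretches, mainly in 3' untranslated regions and introns of mRNA precursors. GFP is not known to bind RNA and stands for background.

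Of 62763 loci, 64 were fully converted in all 6 libraries, and the 6 of them with the most reads whose sequences are shown are given first. They were chosen for being fully converted everywhere, so they are examples and do not measure how often a site is found again. Sequences are the GRCh37 reference on the strand of the reads, 5′ to 3′, as the deposited tables hold them, with every T in capitals. The tables do not say which of these Ts was converted where a site has several. They hold sites and not reads, so whether the reads arose at these positions or were placed there from another sequence by a match that allows T-to-C mismatches was not tested, which holds for every locus, gene and short word named here.
chr13:80175699-80175716, minus strand, intergenic: TaagaTTgggaTaacTcc
chr12:79151373-79151390, minus strand, intergenic: aTgcTaacgTcTgTcgTT
chr3:43809804-43809826, plus strand, intergenic: TaaaacaTcTcagTagcTTgagT
chr16:70993230-70993246, minus strand, 3' untranslated region of HYDIN: TagTaaaTacTcaaacg
chr1:95090790-95090807, minus strand, intron of SLC44A3-AS1: aaacggacTTTgacTcTg
chr7:132200060-132200075, minus strand, intron of PLXNA4: TaggaTgTcgccaggc

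Where a site holds a single T, the converted position is known, and 242 loci were of that kind. Of these, 69 were fully converted in 2 or more libraries. Overlapping sites with a single T can hardly be converted at another base, so the shared position follows from the choice. The 4 of them found in most libraries are shown, with the converted T as the only capital.
chr5:173043873-173043894, minus strand, intergenic, T at 173043884: ggggaaggccTggcggggaagg
chr22:32917824-32917843, minus strand, intron of SYN3, T at 32917833: gggaggcgaaTcaggggaaa
chr10:91059154-91059172, plus strand, intron of IFIT2, T at 91059169: aaggcgaagggaaacTgaa
chr1:214337408-214337424, plus strand, intergenic and antisense to a gene, T at 214337409: gTgaaaagaaccccggc

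The share of deep sites that were fully converted differed widely between the libraries. In G35, 9904 of 29298 sites with 10 or more reads were fully converted (33.8%, 95% interval 33.3 to 34.3%). In G45 the number was 9559 of 31059 (30.8%), and in G20 it was 5170 of 29097 (17.8%). HuR replicate 1 had 7081 of 38104 (18.6%), and HuR replicate 2 had 47246 of 644523 (7.33%), a mean of 13.0% ± 7.96 (SD, n = 2). Total had 1448 of 125550 (1.15%, 95% interval 1.10 to 1.21%), below every immunoprecipitated library. These shares are set by the rule and have no test.

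Single-location sites fell into separate groups by their conversion. When they were sorted into classes of 10 events per 100 reads, the class of 90 to 100 held more sites than the class just below it in every library. In G35, 72.8% of the 13609 single-location sites lay in that class, compared to 2.85% in the class of 80 to 90. In Total the same classes held 5.01% and 0.201% of 28899 sites, while 54.1% had fewer than 10 events per 100 reads. HuR replicate 2 differed in having a broad middle, with 8.79% of its single-location sites at 50 to 60 events per 100 reads. Most fully converted sites had no unconverted read at all, from 76.8% of them in HuR replicate 1 to 95.9% in HuR replicate 2.

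**Figure D1:**
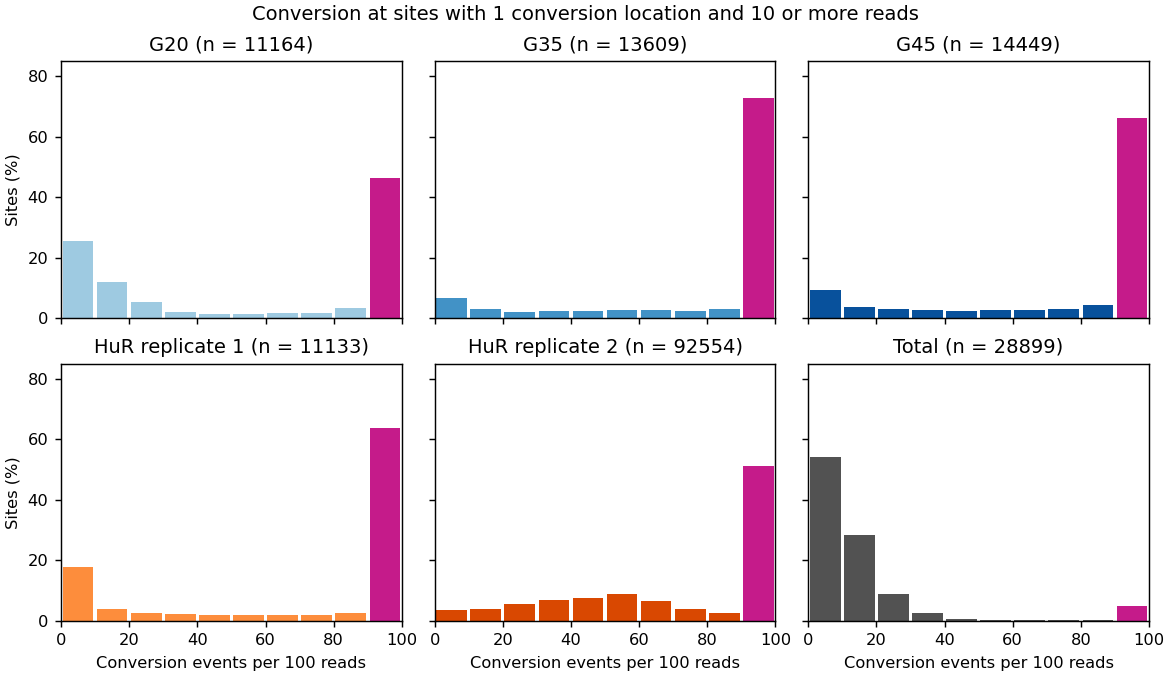
Share of single-location sites with 10 or more reads (vertical axis, % of the n in each title) by their conversion events per 100 reads (horizontal axis, classes of 10), with 1 panel for each library and the class of 90 or more, which holds the fully converted sites, in magenta. That class is the highest bar in every panel except Total, where it holds 5.01% of the sites.

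At the threshold of 0.9, the 3 sites just inside it had 117 events in 130 reads (G20, chr20:59401447-59401466), 99 in 110 (HuR replicate 1, chr3:71230388-71230406) and 72 in 80 (HuR replicate 2, chr5:154401160-154401176), all intergenic. Just outside lay a site in an intron of SFTPD with 340 events in 378 reads (G45, chr10:81707921-81707940), a site in an intron of SRGAP1 with 134 in 149 (G35, chr12:64433036-64433053) and an intergenic site with 134 in 149 (HuR replicate 2, chr21:26546638-26546658). SFTPD encodes a surfactant protein of the lung and SRGAP1 a GTPase-activating protein.

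The fully converted sites were mostly shallow in HuR replicate 2 and deeper elsewhere. Their median was 11 reads in HuR replicate 2, where 90.1% had fewer than 20 reads, compared to 17 in G35, 19.5 in Total, 20 in G45, 23 in G20 and 28 in HuR replicate 1. The deepest had 26955 reads in Total and 26024 in G35. Together they held 12.8% of all reads in G35, 11.3% in G45 and 9.13% in HuR replicate 1, but 3.24% in HuR replicate 2, 1.05% in G20 and 0.503% in Total. Of all conversion events of a library they made up 20.6% in G35, 19.8% in G45 and 18.7% in HuR replicate 1, and 1.36% in Total. Over all its sites, HuR replicate 2 had 28024533 events in 32111810 reads, and Total had 13263701 in 35924998.

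To ask whether a fully converted site is found again, each site was looked up in every other library as the same-strand site that shares at least 1 bp with it and has the most reads there. The counts in that other library played no part in choosing the site. Single-location sites of the same libraries with 10 or more reads and fewer events than 0.9 times the reads (91400 comparison sites) were looked up in the same way. Over the 30 ordered pairs of libraries, 81081 look-ups of fully converted sites met a site with 10 or more reads, and in 64770 of them it was also fully converted, which is 79.9% (95% interval 79.6 to 80.2%). For comparison sites, 5369 of 50725 look-ups met a fully converted site in the other library, which is 10.6% (95% interval 10.3 to 10.9%). These sites were chosen for lower conversion, so that share is not the one over all deep sites. Over all sites with 10 or more reads, 1.15% (Total) to 33.8% (G35) were fully converted. Each pair of libraries enters in both directions and the same locus can enter through several pairs, so these intervals are too narrow and no test was made.

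The share was alike within and between the GFP slices and HuR. From 1 slice to another, 83.2% of the fully converted sites with 10 or more reads were fully converted again, over a range of 79.4 to 86.2% for single pairs. From a slice to a HuR library the share was 80.02%, and from a HuR library to a slice 81.5%. Between the HuR replicates it was 76.5% from replicate 1 to 2 and 79.7% from replicate 2 to 1. From slices to HuR single pairs ran from 75.2% (G35 to HuR replicate 2) to 83.3% (G45 to HuR replicate 1).

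Total, which had no immunoprecipitation, shared fewer of them. Of its fully converted sites with 10 or more reads in another library, 66.3% were fully converted there (95% interval 63.9 to 68.6%), with single pairs from 62.3 to 70.4%. In the other direction, 57.2% (G35) to 69.0% (G20) of the sites from the slices and HuR replicate 1 were fully converted in Total, but only 16.5% (192 of 1165, 95% interval 14.5 to 18.7%) of those from HuR replicate 2. Comparison sites reached 1.02 to 6.27% toward Total. The plot of shares for all pairs shows HuR replicate 2 toward Total as the single dark cell among the fully converted sites.

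**Figure D2:**
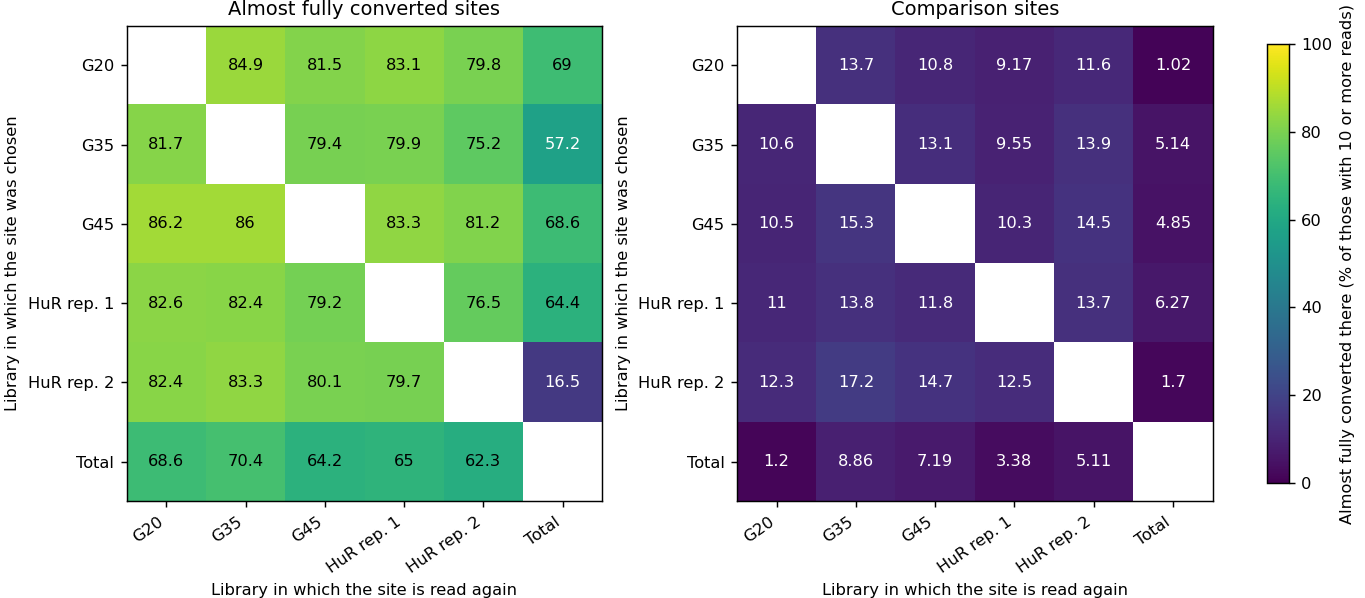
Percentage of sites chosen in the row library that were fully converted in the column library, among those with 10 or more reads there, for fully converted sites (left) and for comparison sites (right), with colour from 0 to 100%. On the left all pairs lie between 57.2 and 86.2% except HuR replicate 2 toward Total at 16.5%, and on the right all lie between 1.02 and 17.2%.

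A deep site without any conversion in another library was rare. Only 218 of the 81081 look-ups (0.269%), from 212 sites, met a site with 10 or more reads and no conversion, compared to 21.0% of the look-ups of comparison sites. Of these 218, 105 were sites of HuR replicate 2 looked up in Total. Most of the remaining losses were sites with several conversion locations in the other library, 13.2% of look-ups, and 86.4% of those still had events of at least 0.9 times the reads. Such sites were then counted as well, a criterion chosen after the values were seen. Events were at least 0.9 times the reads in 91.3% of look-ups of fully converted sites, compared to 21.2% for comparison sites. Where a site has several locations, 1 read can carry several events, so this is not the share of converted reads.

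Sites too shallow to be counted gave the same picture. Where the other library had only 1 to 9 reads, and leaving Total out, fully converted sites had 95.6 conversion events per 100 reads, over 203033 reads. Comparison sites had 53.9. In Total the sites of G20 had 92.1 events per 100 reads at that depth, those of HuR replicate 1 90.8, those of G45 88.2 and those of G35 83.6. Sites of HuR replicate 2 had 38.0 events per 100 reads in Total.

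HuR replicate 2 therefore held fully converted sites of different kinds, and they were separated by what the slices and HuR replicate 1 showed at the same place. In 5532 of its 47246 sites (11.7%) at least 1 of those 4 libraries had a fully converted site too. In Total, reads at these sites at a depth of 1 to 9 had 91.7 events per 100 reads, and 181 of 256 with 10 or more reads were fully converted (70.7%, 95% interval 64.9 to 75.9%). In 41151 sites (87.1%) all 4 libraries had fewer than 10 reads. There Total had 28.3 events per 100 reads at a depth of 1 to 9, close to the 26.0 of comparison sites of HuR replicate 2 at that depth in Total. With 10 or more reads, 7 of 859 were fully converted (0.815%, 95% interval 0.395 to 1.67%) compared to 1.15% of all deep sites of Total. The remaining 563 sites had 10 or more reads but no fully converted site in those libraries, and 4 of 50 were fully converted in Total.

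Merging the fully converted sites of all libraries that overlapped on the same strand gave 62763 loci. Of these, 54302 (86.5%) were fully converted in 1 library only, and 41703 of those belonged to HuR replicate 2. Loci in 2 or more libraries numbered 8461 (13.5%), with 3478 in 2, 2073 in 3, 1683 in 4, 1163 in 5 and 64 in all 6. The most frequent combination was all libraries but Total, with 1100 loci, followed by the 3 slices with HuR replicate 2, with 863. A pair of HuR replicates alone shared 177 loci, fewer than the 746 shared by G35 and G45 alone.

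Depth limited how many loci could be found again. Of the single-library loci, 51012 of the 54302 had 10 or more reads in no other library, so the rule could not have found them in a further library. Of the 269 loci with 10 or more reads in all 6 libraries, 64 (23.8%) were fully converted in all 6 and 56 (20.8%) in 1 only. Of the 2563 loci with such depth in 5 libraries, 1120 (43.7%) were fully converted in all 5.

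The recurring sites also shared their ends. For pairs of libraries, 72.0 to 82.6% of the sites fully converted in both had the same 3′ end to the base, and 61.6 to 76.3% had the same 5′ end. Both ends lay within 2 nt in 92.3 to 97.2%. These sites were short and had to overlap, and the same shares were not taken for comparison sites. Whether shared ends are particular to fully converted sites was therefore not tested. Read counts of the shared sites were related among the slices and HuR replicate 2, with Pearson's r of log10 reads from 0.781 to 0.852. HuR replicate 1 stood apart from these, with r from 0.295 to 0.388 over 2101 to 2812 shared sites for each pair, and Total with r from 0.0169 to 0.188 over 143 to 238 sites. These are correlations across sites, which are not independent, in libraries of unequal depth.

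At the 12 loci with the most reads among the 64, the reads varied widely between libraries. Their high conversion in every library was set by the choice and is given as a description. The chr13 locus had 2896 reads in G20, 12447 in G35, 12582 in G45, 818 and 5131 in HuR replicates 1 and 2, and 1089 in Total. Its events per 100 reads were 99.2 to 99.7 in every library. The slices G35 and G45 were highest and HuR replicate 1 lowest.

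Other loci had most of their reads in a single library. At the chr12 locus at 79151373, HuR replicate 1 had 11568 reads, compared to 111 in G20, 127 in G35, 448 in G45, 46 in HuR replicate 2 and 13 in Total. At the chr3 locus it had 8262 reads, and the other libraries had 29 to 325. The locus at chr5:99561548-99561564, intergenic, was alike, with 2699 reads in HuR replicate 1 and 15 to 51 in the others. In each of these the HuR replicates lay far apart, and replicate 2 lay within the range of the slices or below it, apart from its 325 reads at the chr3 locus, against 98 to 294 in the slices.

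The HYDIN locus was high in Total. HYDIN encodes a protein of motile cilia. The site in its 3' untranslated region had 6285 reads in Total, 114 in HuR replicate 2, 42 in G20, 26 in G45, 19 in G35 and 17 in HuR replicate 1, and every one of these reads was counted as converted.

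The locus in an intron of SLC44A3-AS1, a long noncoding RNA gene, was deep in each library. It had 2985 reads in G35, 1268 in G45, 823 in HuR replicate 2, 471 in Total, 455 in HuR replicate 1 and 322 in G20, with 95.8 to 99.4 events per 100 reads. PLXNA4, which encodes a semaphorin receptor, had 1960 reads in G35, 1666 in G45, 562 in HuR replicate 2, 427 in G20, 164 in HuR replicate 1 and 101 in Total at its intronic site. PSD3, which encodes an exchange factor for a small GTPase, held the locus with the second highest sum (chr8:18797062-18797098, minus strand, intron). It had 7188 reads in G45, 6808 in G35, 5261 in HuR replicate 2, 2412 in G20, 140 in HuR replicate 1 and 17 in Total.

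The other 4 loci lay at chr20:61084925-61084942, chr2:173452618-173452634, chr10:78458749-78458767, all minus strand and intergenic, and chr12:71451469-71451487, in an intron of ENSG00000257454. Their reads ran from 21 in Total to 2383 in HuR replicate 1 at the chr20 locus, and from 234 in G20 to 1039 in G45 at the ENSG00000257454 locus. All 12 loci had 93.8 or more events per 100 reads in all 6 libraries, which the rule requires only to 90. At the plotted loci no library was highest or lowest throughout.

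**Figure D3:**
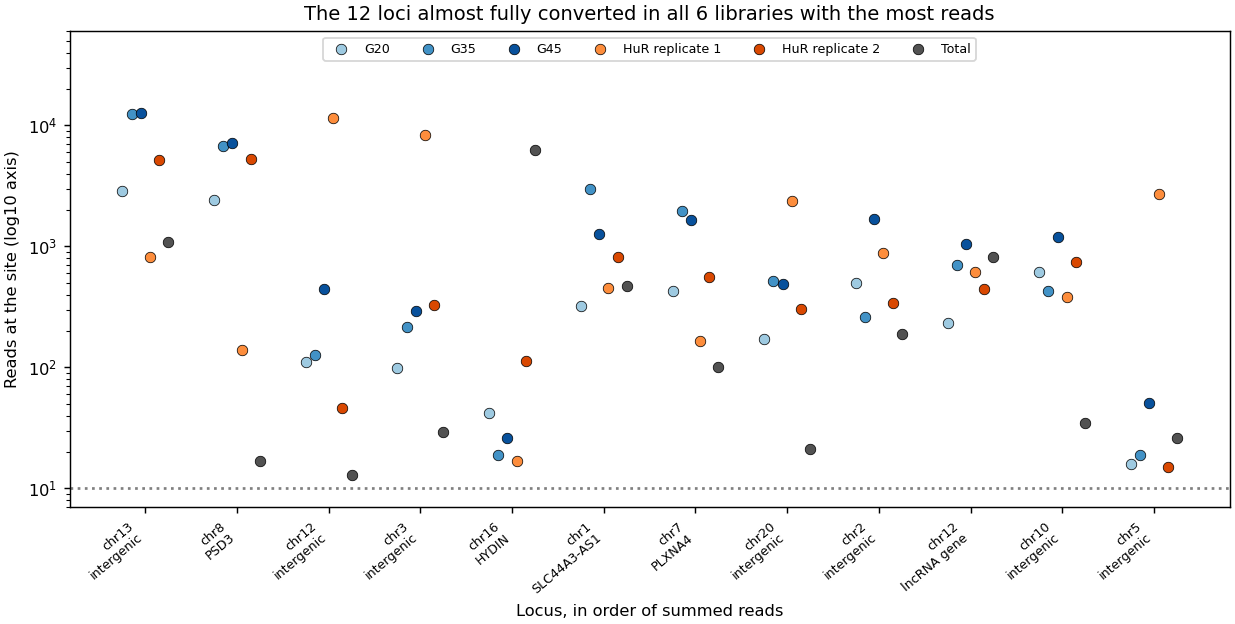
Reads at the site (vertical axis, log10) in each of the 6 libraries (colours) for the 12 loci fully converted in all 6 libraries with the most reads, in order of their summed reads (horizontal axis, by chromosome and gene), with a dotted line at the minimum of 10 reads. At the intergenic chr12 locus and at the chr3 and chr5 loci HuR replicate 1 lies above the other libraries, with 11568, 8262 and 2699 reads, and at the HYDIN locus Total does, with 6285.

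The loci with a single T also varied widely in reads. The chr5 locus at 173043873 had 2969 reads in G20, 52 in G35, 170 in G45, 7 and 23 in HuR replicates 1 and 2, and 1909 in Total, with 99.8 or more events per 100 reads in each. The IFIT2 locus, in a gene of the interferon response, had 349 reads in G20, 237 in G35, 1136 in G45, 647 and 218 in HuR replicates 1 and 2, and 1 in Total, and all were converted. SYN3, which encodes a synaptic vesicle protein, had 2046 reads in HuR replicate 1, 137 to 268 in the slices and HuR replicate 2, and no site in Total. The chr1 locus at 214337408 was the exception, with 97.4 or more events per 100 reads in 5 libraries and 12 events in 22 reads in Total (54.5). Over all look-ups restricted to sites with a single T, 90.1% of 618 were fully converted in the other library, where the site had to cover that T but may hold further Ts, compared to 10.7% of 457 for comparison sites, a restriction added after the values were seen.

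Ranked by reads, the top 3 sites of every slice and of HuR replicate 2 came from 5 loci, of which 2 had no reads in Total, 1 had a single read, and the chr13 locus above and a site in ADGRG6 had 1089 and 72. The intergenic site at chr5:107772087-107772110, plus strand, had 11020 reads in G20, 24181 in G35, 19141 in G45, 369 in HuR replicate 1 and 12341 in HuR replicate 2, and none in Total. CFAP54, which encodes a cilia-associated protein, had 5913 reads in G20, 26024 in G35, 12796 in G45, 1597 in HuR replicate 1 and 7845 in HuR replicate 2 at an intronic site (chr12:97063351-97063371, plus strand), and none in Total. Scaled to its total (RPM), the floor of 3 reads is 0.0835 RPM in Total. An intronic site of LINC00683, a long noncoding RNA gene, had 4158 to 13525 reads in the slices and both HuR replicates and 1 in Total. In G45 its 13525 reads had 2 conversion locations, so it was not a member there, although its events equalled its reads.

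The sites with the most reads in Total behaved in the opposite way. An intergenic site at chr4:80027902-80027918, minus strand, had 14848 reads in Total, 2 in G20 and none elsewhere. An intergenic site at chr2:132300747-132300765, plus strand, had 10496 reads in Total, 7 in G20 and none elsewhere. The site with 26955 reads lay in coding sequence of GYS1, the muscle glycogen synthase, and had 147 reads in G20, 58 in HuR replicate 1, 17 in HuR replicate 2 and 11 each in G35 and G45. HuR replicate 1 had 10549 reads at an intergenic site (chr6:28065030-28065047, plus strand) with 620 in HuR replicate 2, 833 to 4575 in the slices and 9 in Total. HuR replicate 2 had 8034 reads in coding sequence of ADGRG6, an adhesion G protein-coupled receptor, a site with 4566 to 11170 reads in the slices, where 2 of the 3 had several conversion locations.

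Taken by library, the 2910 loci fully converted in 4 or more libraries were present nearly everywhere but in Total. A site of any depth was found at 99.9% of them in G20, 99.5% in G35, all 2910 in G45, 92.5% in HuR replicate 1 and 99.8% in HuR replicate 2, compared to 36.6% in Total. Their median level was 10.3 RPM in G45 and 7.43 in G35, 2.94 in HuR replicate 1, 1.43 in HuR replicate 2 and 0.776 in G20. In Total the median was 0 reads, and 8.08% of the loci had 10 or more. Summed, they held 9.29% of the reads of G45, 8.72% of G35, 5.57% of HuR replicate 1, 1.33% of HuR replicate 2, 0.744% of G20 and 0.219% of Total. The choice of loci favours the libraries in which they were counted, so these levels are a description.

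The positions of the recurring loci were close to those of the genome at large. Of the loci in 4 or more libraries, 64.4% had no annotated gene on their own strand (intergenic) and 31.8% lay in introns, while 66.5% of the genome, counted on both strands, is intergenic and 30.7% intron. Coding sequence held 1.13% of these loci (genome 0.626%) and 3' untranslated regions 0.997% (genome 0.742%). Antisense to a gene lay 28.8%, compared to 28.5% of the genome. Of the 1719 loci where a gene lies on 1 strand only, 880 were on the strand of the gene, 51.2% (95% interval 48.8 to 53.6%). Their mean composition was 25.5% A, 17.8% C, 29.2% G and 27.5% T, compared to 20.5% G and 29.5% T in the genome.

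The loci of HuR replicate 2 alone lay elsewhere. Introns held 67.8% of these 41703 loci, 3' untranslated regions 5.35% and intergenic sequence 22.6%. On the strand of the gene lay 89.3% (95% interval 89.0 to 89.6%) of the 33118 loci with a gene on 1 strand only. They had 38.1% T and 15.1% G on average. Loci of the other libraries alone resembled the recurring loci more, with 54.3 to 61.7% intergenic and 53.1 to 63.1% on the strand of the gene, and G35 was the highest of them on strand. The plot of annotation shows these shares.

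**Figure D4:**
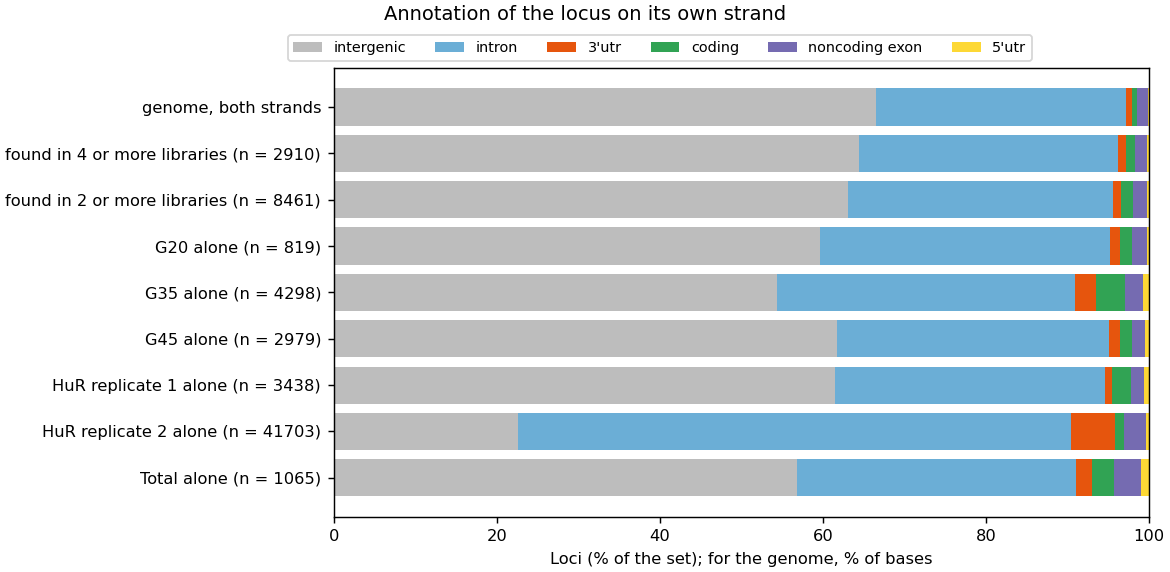
Annotation of loci on their own strand (horizontal axis, % of each set) for loci found in 4 or more and in 2 or more libraries and for loci of a single library, with the whole genome on both strands as the top bar. The set of HuR replicate 2 alone is 67.8% intron and 22.6% intergenic, and every other set is 54.3% or more intergenic.

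Fragment ends separated the same sets. The last base was G in 25.3% of the loci in 4 or more libraries and the base before the site was G in 22.5%, compared to 20.5% G in the genome. In loci of HuR replicate 2 alone the last base was G in 92.3% and the base before in 75.2%. Loci of Total alone were mixed, with 63.6% ending in G and 25.4% preceded by G. In HuR replicate 2 the division ran inside 1 library, since its 5532 sites that were also fully converted in a slice or in HuR replicate 1 ended in G in 26.3% and were preceded by G in 22.6%, compared to 93.0 and 75.7% of its 41151 sites with fewer than 10 reads in all of those. The same sites were on the strand of the gene in 51.5 and 89.6%. Depth moved with these values. Among the 1162 loci of HuR replicate 2 alone with 20 or more reads, 73.0% ended in G, 54.1% were preceded by G, and 77.9% were on the strand of the gene (95% interval 75.0 to 80.6%).

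**Figure D5:**
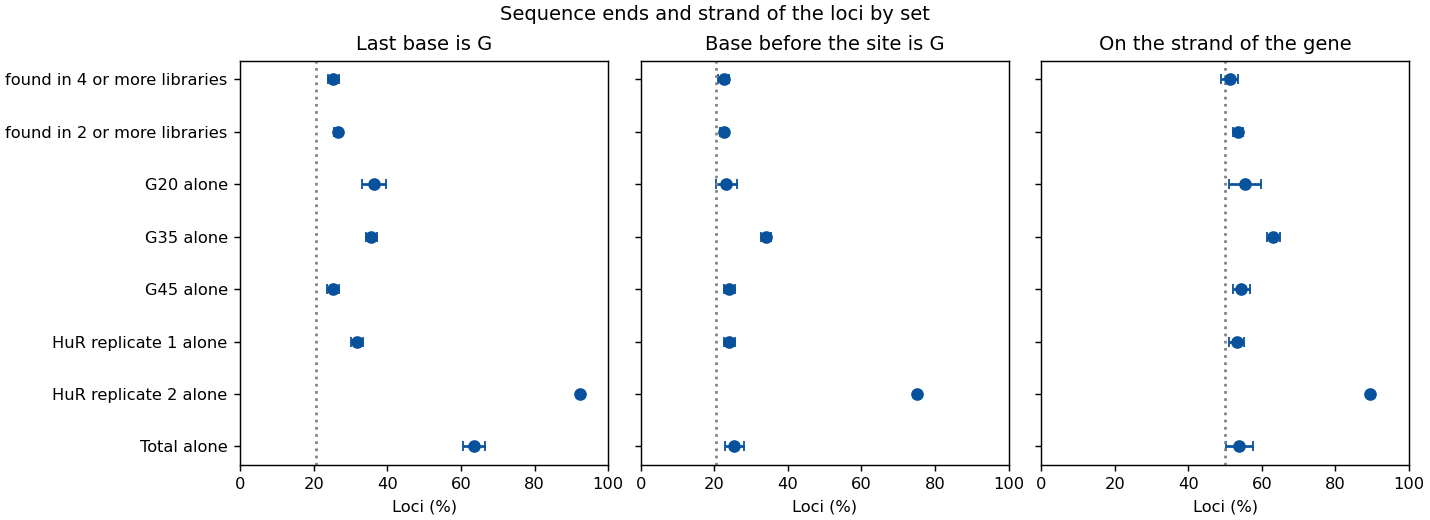
Percentage of loci (horizontal axis) whose last base is G, whose preceding genomic base is G, and which lie on the strand of the gene where a gene is annotated on 1 strand only, for each set of loci, with 95% Wilson intervals and dotted lines at 20.5% (G in the genome) or 50%. HuR replicate 2 alone lies at 92.3, 75.2 and 89.3%, and the loci of 4 or more libraries at 25.3, 22.5 and 51.2%.

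Examples of the loci of HuR replicate 2 alone are shown to set beside the recurring ones. They are those with the most reads and fewer than 10 reads in every other library, chosen after their values were seen, with every T in capitals.
chr1:98122370-98122393, plus strand, antisense to a gene: TTTTaTTTTTTTTTTTTTcaaaag
chr18:21444184-21444209, plus strand, intron of LAMA3: cTTTcaTTTTTTTTTTTTTTTaaaag
chr9:14719955-14719972, plus strand, antisense to a gene: TTcTaaTTTaaaacTacg
chr17:13324197-13324214, plus strand, intergenic: TTaccTcTTccccTcTcg
The site in LAMA3, which encodes a laminin chain, had 129 reads in HuR replicate 2, all converted, 1 each in G20 and HuR replicate 1, and none in G35, G45 or Total. The chr1 site had 129 reads with 128 events, and 0 to 4 reads in the other libraries. The chr9 site had 500 reads, all converted, 8 in HuR replicate 1, 4 in Total and none in the slices. The chr17 site had 137 reads, all converted, 3 in HuR replicate 1, 8 in Total and none in the slices. At all 4 sites every one of the few reads in the other libraries was converted as well, so in conversion these deepest examples are unlike the average of 28.3 events per 100 reads in Total given above for sites of HuR replicate 2 that are shallow elsewhere. Each of these 4 sites ends in G.

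Short words in the sequences differed as well. Over the loci of HuR replicate 2 alone the most frequent 8-mer on the strand of the reads was TTTATTTT, in 921 of 41703 loci (2.21%), and it was in 1 of the 2910 loci of 4 or more libraries. In those 2910 the most frequent were ACAGTCTG and GTGACTGT, each in 18 loci (0.619%). Of the 12776 comparison sites of the slices, ACAGTCTG was in 4 (0.0313%), GTGACTGT in 19 (0.149%) and TTTATTTT in 139 (1.09%). The words were picked for their frequency in these loci, so the counts are a description.

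In each library the fully converted sites were set against the comparison sites by 11 measures the rule did not use, with the library as the unit and an exact two-sided permutation test that flips the sign of the difference in each library. With 6 libraries the smallest p this can give is 0.0312. No measure passed a threshold of 0.05 after Benjamini-Hochberg adjustment over the 11, and the smallest adjusted p was 0.0859 for 8 of them. The libraries share loci, and the slices may share a lysate, so the libraries are not fully independent.

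Fully converted sites were more often intergenic than comparison sites in 6 of 6 libraries (exact permutation p = 0.0312, adjusted p = 0.0859). In Total, 59.6% of the fully converted sites and 6.17% of the comparison sites were intergenic, and in G20 62.5 and 24.8%. In the others the difference was small, with 59.2 and 54.1% in G35, 62.4 and 55.8% in G45, 62.4 and 59.8% in HuR replicate 1, and 27.5 and 26.3% in HuR replicate 2. The mean difference was 17.8 percentage points, and 10.6 without Total. The antisense share was also higher in 6 of 6 libraries, by 8.43 percentage points on average and by 4.62 without Total (exact permutation p = 0.0312, adjusted p = 0.0859). Its difference was 27.5 percentage points in Total and 16.7 in G20, compared to 1.29 in G35, 3.14 in G45, and 1.23 and 0.727 in HuR replicates 1 and 2.

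Coding sequence and 3' untranslated regions held fewer of the fully converted sites in 5 of 6 libraries, with mean differences of -11.7 and -6.54 percentage points (exact permutation p = 0.0625 and adjusted p = 0.0859 for each). These rest largely on G20 and Total, with -6.68 for coding sequence without G20 and -3.49 for 3' untranslated regions without Total. In Total 2.42% of the fully converted sites and 31.8% of the comparison sites were coding, and in G20 1.26 and 37.8%, while the difference was -1.85 percentage points in G35, -1.67 in G45 and -0.516 in HuR replicate 1. For 3' untranslated regions it was -21.8 in Total, -8.73 in G20, -4.21 in G35, -4.06 in G45 and -0.461 in HuR replicate 2. The exceptions were HuR replicate 2 for coding sequence, with 1.14 and 1.07%, and HuR replicate 1 for 3' untranslated regions, with 1.09% in both. The intron share was higher in 4 of 6 libraries (mean difference 3.87 percentage points, exact permutation p = 0.125, adjusted p = 0.153), and the mean was 1.02 without G20, which alone had a difference of 18.1. In Total 52.8% of the fully converted sites in genes annotated on 1 strand lay on the strand of the gene, compared to 97.3% of the comparison sites. The values were 53.9 and 85.7% in G20, 57.8 and 62.2% in G35, 54.0 and 60.9% in G45, 52.8 and 55.5% in HuR replicate 1 and 85.9 and 87.0% in HuR replicate 2, a measure added after the data were seen and given without a test.

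The fully converted sites were short. Their median length was 18 nt in all libraries but HuR replicate 2, where it was 21 nt, and comparison sites had medians of 18 (HuR replicate 1) to 42 nt (G20). They were shorter in 5 of 6 libraries, by medians that differed by -5.67 nt on average and by -2.0 nt without G20 or with a minimum of 20 reads (exact permutation p = 0.0625, adjusted p = 0.0859), and held fewer Ts in 6 of 6, with a mean difference of -1.51 Ts per site (exact permutation p = 0.0312, adjusted p = 0.0859). The percentage of G was lower in 4 and higher in 2 libraries, with a mean difference of 0.139 percentage points (exact permutation p = 1, adjusted p = 1) that turned to -1.25 without Total.

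A copy search asked how often a site of 18 to 50 nt, with any 1 of its Ts replaced by C, matches another place in the reference exactly. The authors' mapping reported only the places with the fewest mismatches. A read over the whole site that matched elsewhere exactly would have been placed there. Which T was converted is mostly not known, so the share does not measure how many reads were misplaced. This was so for 16.3% of the fully converted sites in G20, 17.4% in G35, 17.0% in G45, 14.1% in HuR replicate 1, 14.3% in HuR replicate 2 and 26.2% in Total. Comparison sites had 6.87, 11.3, 10.7, 8.78, 15.3 and 10.8%. The share was higher in 5 of 6 libraries, by 6.91 percentage points on average (exact permutation p = 0.0625, adjusted p = 0.0859), and short sites match more often, so the difference in length moves with it. Among sites with a single T, that T was followed by G in 65.0% (HuR replicate 2) to 86.8% (HuR replicate 1), over 30 to 100 sites for each library, and in 17.9 to 84.6% of comparison sites (exact permutation p = 0.406, adjusted p = 0.447), and the mean difference of 9.25 percentage points was 1.35 without Total and 13.9 without G45. A site of any depth on the same strand in another library was found for 95.5% of the fully converted sites of G20, 96.7% of G45, 87.5% of G35, 87.1% of HuR replicate 1, 53.6% of Total and 47.5% of HuR replicate 2, lower than for comparison sites in 5 of 6 libraries (mean difference -5.06 percentage points, exact permutation p = 0.0625, adjusted p = 0.0859). With a minimum of 20 reads the direction turned, to 0.495.

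Across chromosomes the recurring loci were spread evenly, with 2.54 (X) to 3.33 (20) loci in 2 or more libraries per Mb of known sequence on the chromosomes other than Y, and 2.96 over the whole genome. Chromosome Y held 24 such loci, 1.04 per Mb. Loci of HuR replicate 2 alone were less even, from 9.60 per Mb on X to 18.5 on chromosome 1, and 1.61 on Y. The mitochondrial genome held 5 loci in all.

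Noncoding exons, meaning any exon without coding or untranslated annotation, held 2.47% of all loci, compared to 1.27% of the genome. The share was 2.78% in loci of HuR replicate 2 alone and 1.48% in those of 4 or more libraries. Classes of noncoding RNA genes cover only part of these loci. Exons of long noncoding RNA genes held 502 loci, misc_RNA 14, snoRNA genes 9, miRNA genes 6 and snRNA genes 1, and none was counted in an annotated rRNA gene or in a mitochondrial rRNA or tRNA gene. Mitochondrial sites could not all be placed, because the mitochondrial reference of the files differs from the annotated one.

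The 10 genes with the most loci on their own strand were 497 to 1900 kb long. Of their 581 loci, 513 (88.3%) were of HuR replicate 2 alone, from 36 of 49 in FHIT to 56 of 58 in NKAIN2. Over all 62763 loci, 41703 (66.4%) were, but that share includes loci outside genes. Of all loci 64.7% lay in a gene on their own strand, while only 22.6% of those of HuR replicate 2 alone were intergenic. The share over all loci in genes is therefore above 66.4%, and the 2 shares are not like for like. AUTS2, a regulator of transcription in neurons, held 84 loci over 1195 kb, of which 79 were of HuR replicate 2 alone and 2 were in 2 or more libraries, and its opposite strand held 10. ERBB4, a receptor for neuregulins, held 63 loci with 58 of HuR replicate 2 alone, and 3 on the opposite strand. PRKG1, a cGMP-dependent kinase, held 62 and 5, and LRP1B, of the LDL receptor family, 59 and 9. NKAIN2 held 58 and 5, PDE4D, a cAMP phosphodiesterase, 56 and 12, and ADK, adenosine kinase, 54 and 4. PARD3, a polarity protein, held 50 and 4, FHIT, a diadenosine hydrolase, 49 and 11, and RERE, a transcriptional corepressor, 46 and 1.

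Over the 10 genes, loci in 2 or more libraries numbered 23 on the strand of the gene and 20 on the opposite strand, 3.77 per Mb for both together, beside 2.96 per Mb in the whole genome. Each gene had 0 to 5 of them on its strand and 0 to 7 opposite it. FHIT had the most of both, with 5 and 7. By contrast, HuR replicate 2 alone had 36 to 79 loci on the strand of each gene and 0 to 5 opposite it. The genes were ranked by their loci, so these counts have no test.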

How the data were processed

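Tables of PARalyzer groups (all sites) and clusters from 6 libraries were used. The authors sequenced single reads, removed adapters and mapped them to hg19 with Bowtie. Mismatches were allowed, and only the places with the fewest mismatches were reported for a read. Uniquely mapping reads whose mismatches were T-to-C were kept, so a short read needs no exact match to be kept. The deposited values are unnormalized counts of reads, conversion locations and conversion events per site. Removal of PCR duplicates is not stated. Libraries held 6187300 to 38644636 reads.

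Here, sites were filtered as described, looked up between libraries with numba code, and annotated at their midpoint with GENCODE release 44 mapped to GRCh37. All single-location sites outside the mitochondrial genome matched that reference. Intervals are 95% Wilson intervals. The exact permutation test used 6 libraries and Benjamini-Hochberg adjustment over 11 measures. Overlaps and the tests were tested on simulated data, where 8000 of 8000 overlaps matched a search of every pair. The members, lists and measures were chosen with earlier results of these data known. Named loci are the 12 found in most libraries by reads, the 3 members with most reads in each library, the 3 sites on each side of the threshold, and the 10 genes with most loci. Loci with a single T, those of HuR replicate 2 alone, the 8-mers, end bases and gene strand were added after seeing the data. Alternatives changed the read minimum, the event share, the strand, the overlap, the comparison sites, the mitochondrial genome, the table and the libraries. Python 3.11.15, numpy, pandas, scipy and matplotlib were used. Read-level mismatches were not used here.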

Additional observations from a re-analysis of the deposited data

Results flagged for a closer look

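The intron share of fully converted sites against comparison sites went one way in the slices and the other way in HuR. In percentage points, the difference was 18.1 for G20, 3.27 for G35 and 1.26 for G45, while replicates 1 and 2 of HuR gave -0.624 and -0.527. Every slice moved in 1 direction and both HuR replicates in the other, which is why it is listed, and the difference between slices and HuR was not tested. Apart from G20 the differences were 3.27 percentage points or less. Their counting error was not taken, so the direction of the smallest ones is uncertain. No group has 4 or more samples, so no library was examined as standing apart from its group.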

How the results depend on the processing

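The number of fully converted sites fell from 80408 to 22233 with a minimum of 20 reads and to 10397 with 50, and leaving out each library in turn gave 33162 (without HuR replicate 2) to 78960. It stayed within 1.5 times under the other alternatives, including 76086 in the clusters tables. The share fully converted again, 79.9%, was 68.2% when events had to equal reads, and, as alternatives chosen after seeing the data, 90.1% for sites with a single T and 91.3% with any number of locations in the other library. Leaving out each library gave 78.3 to 81.6%. For comparison sites, 10.6%, the share was 11.4% with an overlap over 0.5 of both sites, 9.23% with a minimum of 20 reads, 8.75% with events of at least 0.8 of reads, 16.7% with events equal to reads and 21.2% with any number of locations, and leaving out each library gave 9.25 to 12.7%. For the 11 measures, the share found in another library turned from -5.06 to 0.495 percentage points with a minimum of 20 reads, and the difference in G turned from 0.139 to -0.0876 without HuR replicate 2 and to -1.25 without Total, and reached 1.30 without G20. All other differences kept their sign under every alternative, although leaving out G20 or Total moved several by over 1.5 times, as given beside them, and none passed the threshold under any. With 5 libraries the test cannot give a p below 0.0625, so leaving out a library says nothing about the calls. No paired analysis was possible because only HuR has numbered replicates. Depth limits the result, since 51012 loci had 10 or more reads in 1 library only.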
